A study of Mus musculus with 2 samples.

Results

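The S100 genes encode small calcium-binding proteins, and 10 of them (S100a1, S100a3, S100a4, S100a6, S100a8, S100a9, S100a10, S100a11, S100a13 and S100a16) were followed here in liver sinusoidal endothelial cells (LSEC), the fenestrated lining cells of the liver capillaries. They were taken by gene name from the probes of the wild-type array and by the same spots on the ob/ob array, which gave 13 probes and 10 of the 31894 genes and unnamed transcripts on the array. The cells came from 1 male ob/ob mouse, which lacks functional leptin and becomes obese, and from 1 male wild-type mouse, both 8 weeks old. Livers were digested with collagenase, the cells of both genotypes were cultured overnight in medium with serum, and each RNA was labelled with Cy3 and hybridised to 1 array. No further allele, agent or strain is given in the labels, and with 1 mouse and 1 array per genotype no test could be run and no p-value is given.

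S100 proteins form dimers through paired EF hands, helix-loop-helix folds whose loops hold calcium. Calcium opens a surface that binds target proteins, among them annexins and non-muscle myosin. Some members also leave the cell and act on the receptors RAGE, encoded by Ager, and TLR4. In liver, S100a8 and S100a9 are best known from neutrophils and monocytes, and S100a4 is widely used as a marker of fibroblasts and is found in macrophages and lymphocytes too.

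In ob/ob cells S100a4 was 14.3-fold brighter than in wild-type cells and S100a6 was 6.75-fold brighter. These sizes depend on the processing. With another background correction the log2 differences were 1.84 for S100a4 and 1.89 for S100a6, and S100a4 was dim in wild-type cells. S100a8 and S100a9 were above background in ob/ob cells only. S100a1, S100a10, S100a11, S100a13 and S100a16 lay within 2-fold between ob/ob and wild-type cells, and S100a3 was at the edge of detection.

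The probes of S100a1, S100a4, S100a6 and S100a8 below read the coding sequence at or beside the second EF hand, and they are shown because they tell what the array measured for the members that differed and for one that did not. Each is 60 bases long, printed 5′ to 3′ on the transcript strand, and capitals mark TTCNAGGAGT, which covers the codons at the end of the calcium-binding loop.
S100a4: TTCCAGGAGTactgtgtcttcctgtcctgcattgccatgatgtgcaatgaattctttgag
S100a6: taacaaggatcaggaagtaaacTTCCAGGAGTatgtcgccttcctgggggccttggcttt
S100a8: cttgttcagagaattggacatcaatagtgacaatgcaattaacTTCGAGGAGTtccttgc
S100a1: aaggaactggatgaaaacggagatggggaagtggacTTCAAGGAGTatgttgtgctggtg
The S100a4 probe lies at chr3:90409734-90409793, that of S100a6 at chr3:90418160-90418219 and that of S100a8 at chr3:90473778-90473837, all on the plus strand of build mm9. The S100a1 probe lies at chr3:90315191-90315250 on the minus strand. TTCNAGGAGT is the word of 10 letters with 1 free inner position shared by the probes of the largest number of members, 4 of 10, and it was then searched on both strands of all 39429 probes, of which 33 (0.0837%) hold it. Outside these capitals the printed sequences differ, although they encode the same fold. The probes of S100a8 and S100a1 hold codons for a whole calcium-binding loop by a pattern search.

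S100a4, which binds non-muscle myosin and is also called fibroblast-specific protein, had the largest difference among the 7 members measured on both arrays, except after normexp, a model-based background correction, with 75th percentile scaling, where S100a6 at 1.89 exceeded it at 1.84. The probe printed above gave a processed signal of 746 in ob/ob cells, against 36.2 in wild-type cells. The processed signal is the spot's intensity after background subtraction within its array. A second S100a4 probe at chr3:90409908-90409967, nearer the end of the transcript, gave 898 in ob/ob cells, against 23.5 in wild-type cells. Both S100a4 probes were therefore bright on the ob/ob array and dim, though above background, on the wild-type array. Before comparison each array was divided by its 75th percentile, a signal of 1430 for ob/ob and 989 for wild-type, so that the ob/ob array was 1.45 times as bright overall. After that scaling S100a4 differed by 3.83 on the log2 scale (ob/ob minus wild-type) by the probe printed above and by 4.72 by the second probe. The printed probe stands for the gene because the mean of its scaled log2 values over both arrays was the higher. The scanner's error model gave an SD of 0.25 and 0.26 for these differences, which covers the reading of the spots only and not the spread between mice or preparations. Among the 18147 genes measured on both arrays S100a4 ranked 19 from the highest difference. Its size depended on the background correction: the difference was 1.84 where normexp preceded the 75th percentile scaling, and 2.56 where quantile normalization followed normexp.

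S100a6, or calcyclin, which binds the ubiquitin ligase component encoded by Cacybp, had signals of 1770 in ob/ob and 181 in wild-type cells. Its log2 difference was 2.76 (error-model SD 0.21), rank 142 of the same genes. It was measured by 1 probe, well above background on both arrays. After normexp and 75th percentile scaling its difference was 1.89.

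**Figure D1:**
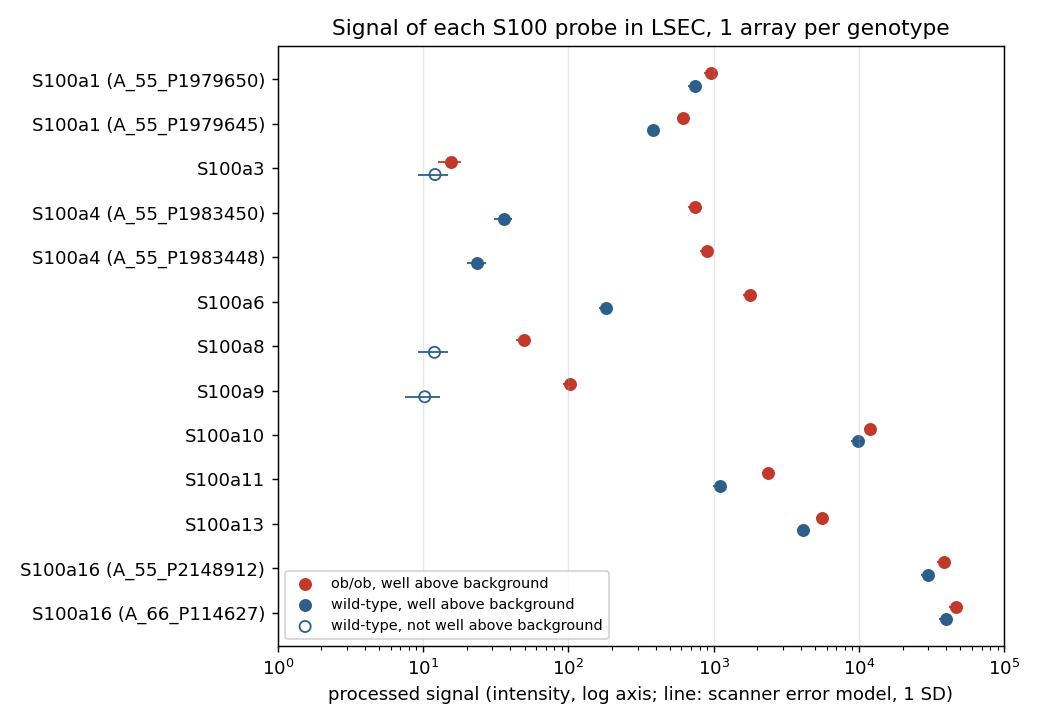
Processed signal of each of the 13 S100 probes on a log axis, red for ob/ob and blue for wild-type, with 1 array per genotype. Lines are 1 SD of the scanner's error model, and open circles are spots not well above background. The probes of S100a4 and S100a6 stand far apart between the arrays, whereas those of S100a1, S100a10, S100a13 and S100a16 lie close together.

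S100a8 and S100a9 pair to form calprotectin, which binds zinc and manganese and is stored in neutrophils. S100a9 had a signal of 103 in ob/ob cells and 10.3 in wild-type cells, and S100a8 of 49.4 in ob/ob cells and 12.0 in wild-type cells. Neither was well above background in wild-type cells, so only a bound can be given. The bound sets the ob/ob value against the dimmest signal that was well above background on the wild-type array, 12.3, or the probe's own signal where higher. By it S100a9 was at least 5.77-fold brighter in ob/ob cells and S100a8 at least 2.77-fold. These bounds hold for this background subtraction and scaling only, and they were not computed after normexp. Before background subtraction S100a8 read 140 in ob/ob and 96.0 in wild-type cells, and S100a9 read 194 in ob/ob and 92.7 in wild-type cells. The limit of 12.3 is also below the brightest negative control of the wild-type array. The 153 negative control spots had a median signal of 2.65 on the ob/ob array and 2.88 on the wild-type array, and the highest was 23.6 on the ob/ob and 21.3 on the wild-type array. No negative control was brighter than S100a8 or S100a9 on the ob/ob array, and 2 were on the wild-type array.

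S100a10 and S100a11, which are known to bind annexins, lay within 2-fold. S100a10, or p11, which has lost calcium binding in its loops and holds annexin A2 at the membrane, had signals of 12000 in ob/ob and 9872 in wild-type cells and a log2 difference of -0.25 (error-model SD 0.20). S100a11, which binds annexin A1, had signals of 2380 in ob/ob and 1104 in wild-type cells and a difference of 0.58 (SD 0.20). Its value lay between 0.30 and 0.58 under the alternatives tried. The RefSeq table names a pseudogene copy, S100a11-ps, and the annotation of the S100a11 probe names 3 RefSeq transcripts, so that this value may hold signal of more than the S100a11 transcript.

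S100a13, which takes part in the non-classical release of FGF1 and interleukin-1 alpha, had signals of 5590 in ob/ob and 4143 in wild-type cells and a difference of -0.10 (SD 0.20). S100a16 was read by 2 probes. Its brighter probe had 46500 in ob/ob and 39816 in wild-type cells, a difference of -0.31, and the other had 38400 in ob/ob and 29870 in wild-type cells, a difference of -0.17. S100a1, known for its role in calcium handling of heart muscle, had 958 in ob/ob and 745 in wild-type cells by its brighter probe, a difference of -0.17, while the probe printed above gave 620 in ob/ob and 384 in wild-type cells and 0.16. The sign for S100a1 thus depends on the probe. Differences of this size are below the SD of 0.33 between probes of the same gene, taken over 3688 genes. S100a3, a protein of the hair cuticle, had 15.5 in ob/ob and 12.1 in wild-type cells. It counted as above background in ob/ob cells only, but after scaling it was not brighter there than the wild-type detection limit, so no fold is given.

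Of the 7 members measured on both arrays, 2 were at least 2-fold higher in ob/ob cells, 0 lower and 5 within 2-fold. Over all 18147 genes measured on both arrays 5.83% were at least 2-fold higher and 2.29% lower. The median difference of the 7 members was -0.10, beside -0.12 over all genes, and 4 of the 7 lay below 0. The split over all genes was 1058 higher and 416 lower, but 769 higher and 977 lower when arrays were scaled by their median, a shift of -0.28 for each gene. It was 369 higher and 3827 lower after normexp and 75th percentile scaling. S100a4 and S100a6 stayed at least 2-fold higher under all 8 alternatives. The remaining 3 of the 10 members were above background in ob/ob cells alone, as were 6.83% of all genes and transcripts. That total includes 11289 that were above background on neither array, while every member was above background on at least 1. Of the 20605 genes measured on at least 1 array, 2179 were above background on the ob/ob array only. The ob/ob array also had more spots well above background, 64.8% against 58.6% on the wild-type array.

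**Figure D2:**
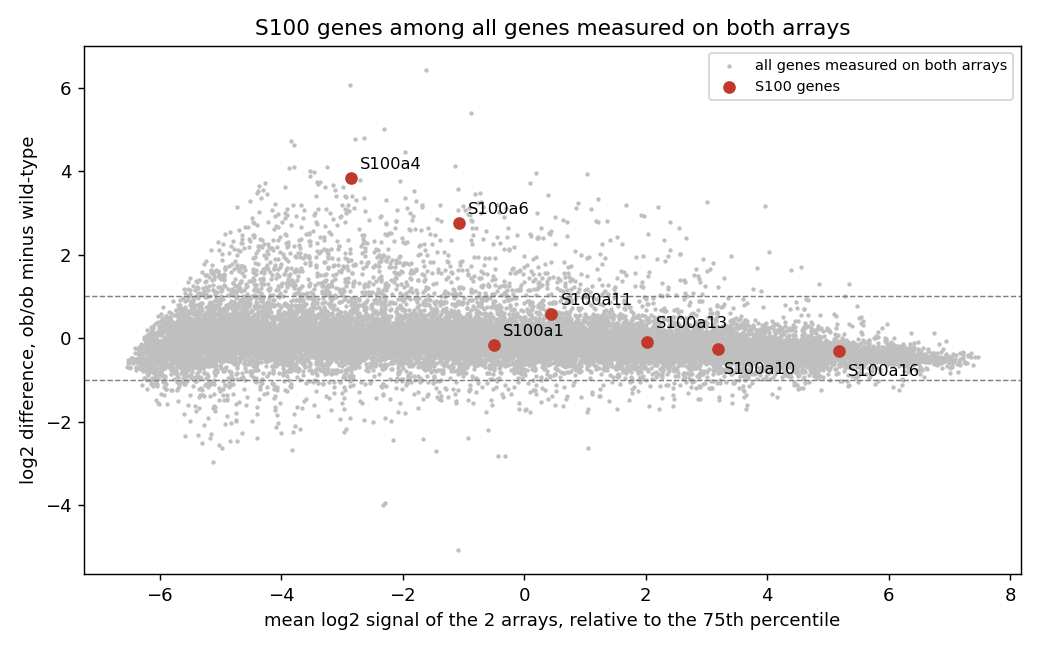
Log2 difference (ob/ob minus wild-type) against the mean log2 signal of the 2 arrays, for all 18147 genes measured on both (grey) and the 7 S100 genes among them (red). Dashed lines mark 2-fold. S100a4 at 3.83 and S100a6 at 2.76 lie at the upper edge of the cloud, and the others lie within it.

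**Figure D3:**
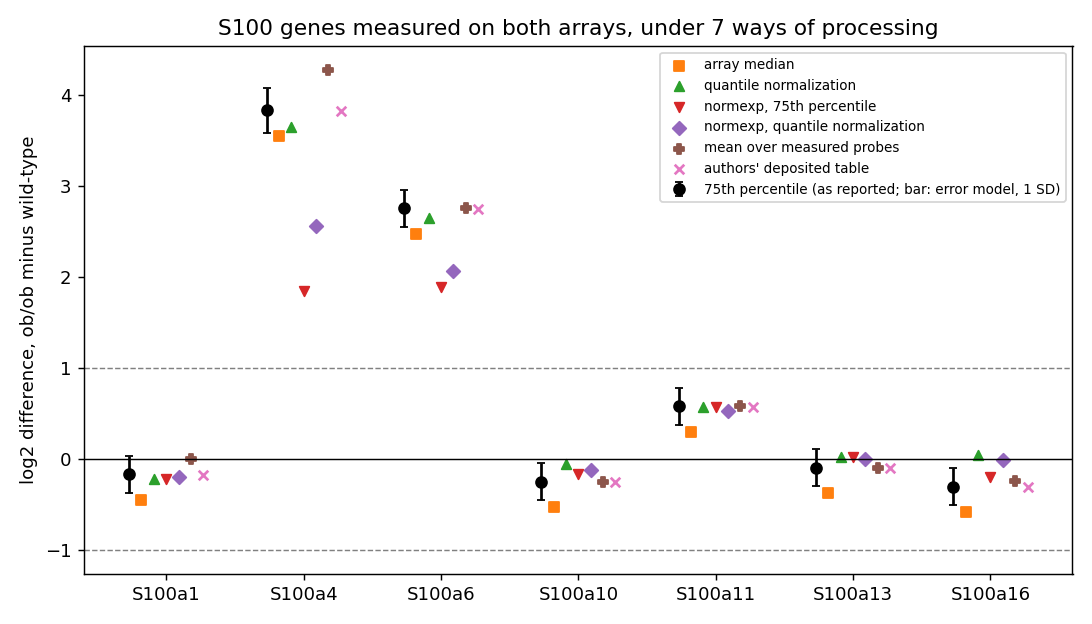
Log2 difference (ob/ob minus wild-type) of the 7 S100 genes measured on both arrays as reported (black, bar 1 SD of the error model) and under 6 of the 8 alternatives. S100a4 and S100a6 stay above the 2-fold line throughout, with the lowest values, 1.84 and 1.89, where normexp preceded 75th percentile scaling. The alternatives that kept outlying spots or genes measured on 1 array are not drawn.

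Of the 13 probes, 10 have values in the authors' deposited table, and those of S100a3, S100a8 and S100a9 do not. By the authors' deposited table, S100a4 stood at 0.52 in ob/ob and 0.037 in wild-type cells by the probe printed above and at 0.63 in ob/ob and 0.024 in wild-type cells by the second probe. The value for S100a6 in the authors' deposited table was 1.23 in ob/ob and 0.18 in wild-type cells. Set against the scanner files, values of the authors' deposited table are the signal over the 75th percentile of its array.

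All members lie on chromosome 3. The probes of 8 members span 182 kb in mm9, from 90314959 to 90496632, and those of S100a11 and S100a10 follow 2.83 Mb further on. Within the 182 kb the array holds 12 genes, all of them S100 genes. Read along the chromosome, S100a1, S100a13, S100a14, S100a16 and S100a2 differed by -0.17, -0.10, -0.17, -0.31 and -0.60 on the log2 scale. Next come S100a3, at the edge of detection, S100a4 at 3.83, S100a5 at -0.12 and S100a6 at 2.76. S100a5, between the members that differed most, had signals of 20.1 in ob/ob and 15.1 in wild-type cells, barely above background. S100a14 (19.7 in ob/ob and 15.3 in wild-type cells) and S100a2 (29.7 in ob/ob and 31.2 in wild-type cells) were dim too. The brightest negative control, 23.6 on the ob/ob and 21.3 on the wild-type array, exceeded S100a5 and S100a14. The differences of these dim genes therefore tell little. S100a7a, not above background on either array, precedes S100a8 and S100a9. The array holds 9 further genes with an S100 name, of which 4 were measured on both arrays and 0 reached 2-fold. Besides S100a2, S100a5 and S100a14 these include S100pbp, which encodes a binding protein and no S100 protein, at -0.47 and -0.38 by its probes. The remaining 5, S100a7a, S100a7l2, S100b, S100g and S100z, were on neither array above background.

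The promoters are shown for the 4 members with the highest ob/ob values relative to wild-type. Of these, S100a8 and S100a9 were above background in ob/ob cells only. RefSeq (GRCm38.p6) gives a promoter for 9 of the 10 members, and the 100 bases before the gene start are printed, with TATAAA, the letters of a TATA box, in capitals. The genes, the window and TATAAA, 1 of 13 motifs looked at, were chosen after values and sequences were seen.
S100a4: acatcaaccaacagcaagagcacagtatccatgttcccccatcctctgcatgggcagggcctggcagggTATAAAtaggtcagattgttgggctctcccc
S100a8: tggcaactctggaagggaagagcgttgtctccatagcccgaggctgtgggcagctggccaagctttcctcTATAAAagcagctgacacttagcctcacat
S100a6: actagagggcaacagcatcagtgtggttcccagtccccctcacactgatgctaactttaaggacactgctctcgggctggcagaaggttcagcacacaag
S100a9: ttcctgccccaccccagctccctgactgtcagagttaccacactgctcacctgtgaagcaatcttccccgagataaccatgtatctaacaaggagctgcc
They lie at chr3:90603670-90603769, chr3:90668971-90669070 and chr3:90612794-90612893 on the plus strand and, for S100a9, at chr3:90695722-90695821 on the minus strand. TATAAA, searched on both strands, begins 31 bases before the gene start in S100a4 and 30 bases before it in S100a8, and 5.56% of the 32851 promoter windows of this length hold it. In S100a6 and S100a9 these letters are not in the window. The 4 genes were chosen by their values and the promoters of the other members are not shown. The share over all windows is therefore no yardstick for them, and shared regulation was not tested.

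Genes that work with S100 proteins differed by group. Of 5 annexins that bind S100 proteins, all measured on both arrays, 2 were at least 2-fold higher in ob/ob cells and 0 lower, with a median of 0.71. These were Anxa6 at 1.45 (signals 3490 in ob/ob and 882 in wild-type cells) and Anxa1 at 1.25 (7830 in ob/ob and 2273 in wild-type cells). With arrays scaled by their median 1 annexin reached 2-fold, and with quantile normalization 3 did. Anxa2, the partner of S100a10 and the brightest, had 44500 in ob/ob and 18847 in wild-type cells, a difference of 0.71. Of the plasminogen system, which S100a10 with annexin A2 helps to activate at the cell surface, 2 of 4 genes were at least 2-fold higher, Plg at 3.08 and the tissue activator Plat at 1.59, but 0 of 4 did so after normexp and 75th percentile scaling. Plg had signals of 234 in ob/ob and 19.2 in wild-type cells, the latter below the brightest negative control there, 21.3. Plau, which encodes urokinase, differed by 0.91, and Plaur, the urokinase receptor gene and the brightest of the 4, by -0.13. Plasminogen is made by hepatocytes, and of 8 hepatocyte markers 6 were at least 2-fold higher as well, with a summed level of 18.04 in ob/ob and 2.13 in wild-type cells, in units of the 75th percentile of each array. Most of that sum came from Alb (19700 in ob/ob and 1536 in wild-type cells). The part of hepatocytes in the Plg value was not tested.

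The phagocyte NADPH oxidase, to which S100a8 and S100a9 carry arachidonic acid in neutrophils, had 4 of 6 genes at least 2-fold higher in ob/ob cells and 0 lower (median 2.06). After normexp and 75th percentile scaling 3 of 6 were higher, with a median of 1.03, and after normexp and quantile normalization 5 of 6, with a median of 1.31. Ncf1 differed by 2.49, Ncf4 by 2.42 and Cybb, the catalytic subunit, by 2.37. Its brightest gene, Cyba, had 49100 in ob/ob and 17744 in wild-type cells and differed by 0.94. Of 11 monocyte and macrophage markers measured on both arrays 9 were at least 2-fold higher as well, with a median of 1.51. Of 7 neutrophil markers 1 was higher and 2 lower. The part of these cells in the oxidase values was not tested. Receptors of extracellular S100 proteins did not reach 2-fold in either direction, with a median of -0.06 over the 4 measured on both arrays. Tlr4 differed by -0.21, Cd36 by 0.48 and Alcam by -0.54, and Ager was on neither array above background, with 2.68 in ob/ob and 4.90 in wild-type cells. The 6 intracellular targets lay within 2-fold with a median of -0.18, among them the S100a4 target Myh9 at 0.25, Myh10 at 0.52 and the S100a6 partner Cacybp at -0.38. Of the cargo released with S100a13, Fgf1 differed by 0.95 and Il1a by 0.68, and Syt1 was on neither array above background. After normexp and 75th percentile scaling the median of Fgf1 and Il1a was -0.07, against 0.82 as reported.

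**Figure D4:**
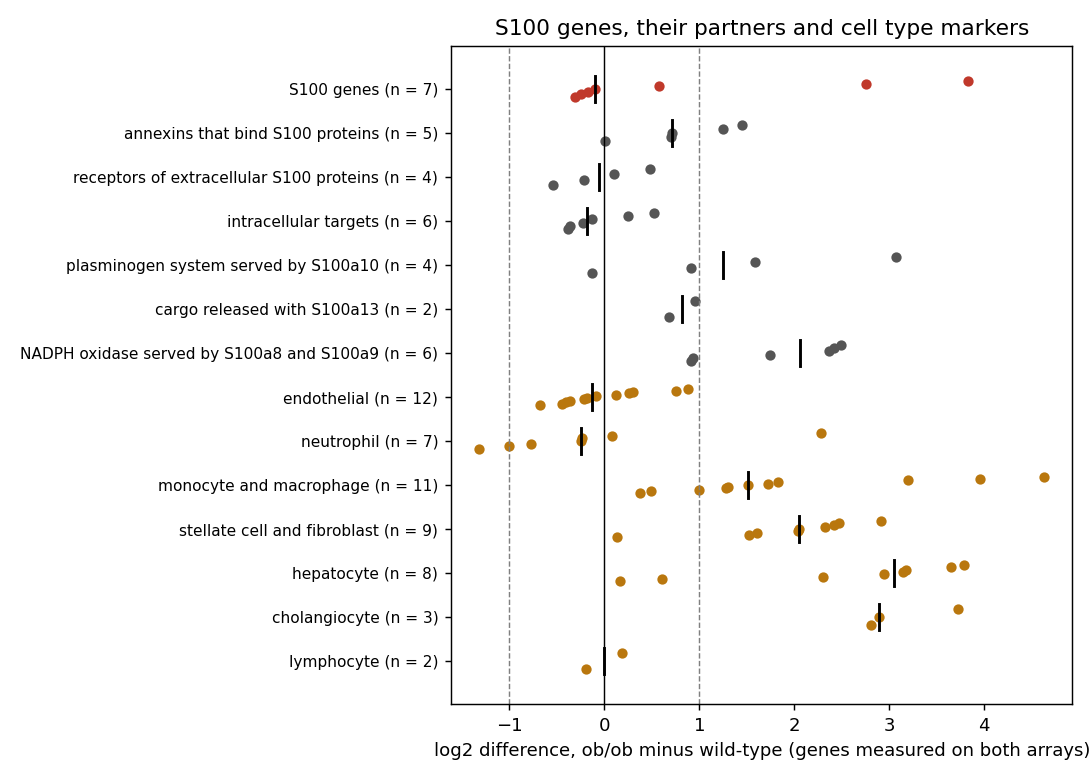
Log2 difference (ob/ob minus wild-type) of every gene measured on both arrays in the S100 family (red), in 6 groups of S100 partners (grey) and in 7 lists of cell type markers (ochre). Black bars are medians and dashed lines 2-fold. The endothelial markers centre near 0 while those of macrophages, stellate cells, hepatocytes and cholangiocytes lie mostly to the right.

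Markers of the labelled cell type were present in both samples. All 12 endothelial markers, Cdh5, Fcgr2b and Tek among them, were measured on both arrays, 0 were beyond 2-fold, and their summed level was 120.4 in ob/ob and 146 in wild-type cells, in units of the 75th percentile. Markers of several other cell types were higher in ob/ob cells, as S100a4 and S100a6 were. Of 13 monocyte and macrophage markers on the array 9 of the 11 measured on both were at least 2-fold higher and 0 lower, with a summed level of 166 in ob/ob and 69.8 in wild-type cells, and Chil3 and Ccr2 were above background in ob/ob cells only. Chil3 was at least 110.2-fold brighter in ob/ob cells, and among the 11 measured on both Timd4 at 4.63 had the largest difference. Timd4 had signals of 517 in ob/ob and 14.4 in wild-type cells. The wild-type signal was below the brightest negative control there, 21.3, so the size of this difference is uncertain. Of 11 stellate cell and fibroblast markers 8 of the 9 measured on both were higher and 0 lower, with a summed level of 36.1 in ob/ob and 8.86 in wild-type cells. Most of this sum came from Dcn (47500 in ob/ob and 7908 in wild-type cells). Col3a1 differed by 2.92, and Col1a1 and Reln were above background in ob/ob cells only. After normexp and 75th percentile scaling 2 of these 9 were at least 2-fold higher. All 3 cholangiocyte markers measured on both were higher, Spp1 at 3.73, Krt8 at 2.90 and Krt18 at 2.81. The 4 others, Krt7, Krt19, Epcam and Sox9, were dim and above background in ob/ob cells only. Their bounds were small, at least 1.01-fold, 1.87-fold, 1.05-fold and 1.55-fold. The summed cholangiocyte level was 5.52 in ob/ob and 0.55 in wild-type cells, most of it from Spp1 (5580 in ob/ob and 291 in wild-type cells). Of 7 lymphocyte markers 0 of the 2 measured on both reached 2-fold. Cd3e differed by 0.19 (150 in ob/ob and 91.0 in wild-type cells) and Nkg7 by -0.19 (426 in ob/ob and 336 in wild-type cells). Gzmb, Cd3d and Cd2 were at least 8.80-fold, 6.44-fold and 1.20-fold brighter in ob/ob cells, being above background there only. The lymphocyte markers thus did not move together. The B cell marker Cd79a was above background on neither array. The summed lymphocyte level was 0.62 in ob/ob and 0.46 in wild-type cells. The part of these cells in the S100a4 and S100a6 differences was not tested, and more cells of a type and more RNA per cell cannot be told apart in such bulk samples.

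Neutrophil markers did not move together beside S100a8 and S100a9. Of 13 on the array 7 were measured on both, of which 1 was at least 2-fold higher in ob/ob cells and 2 lower. Lcn2 differed by 2.28, Mpo by -1.32 and Elane by -1.01. After normexp and 75th percentile scaling 0 of the 7 were at least 2-fold higher and 4 lower. Mmp8 was at least 9.30-fold and Mmp9 at least 2.82-fold brighter in ob/ob cells, being above background there only, as was Ltf, while Retnlg was above background in wild-type cells only. Ngp and Cxcr2 were on neither array above background, and Ly6g had signals of 43.2 in ob/ob and 28.3 in wild-type cells. The summed level was 45.4 in ob/ob and 57.7 in wild-type cells. Most of it came from Csf3r (52200 in ob/ob and 42743 in wild-type cells) and Hdc (11500 in ob/ob and 13563 in wild-type cells). The sum thus follows these 2 genes, while Ly6g, Ngp and Cxcr2 were dim or not detected, and is no measure of neutrophils. The part of neutrophils in the S100a8 and S100a9 values was not tested.

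Leptin, the gene mutated in ob/ob mice, was above background on neither array (2.71 in ob/ob and 2.97 in wild-type cells) and checks nothing about the labels. None of the 13 S100 spots was flagged as uneven or as an outlier, and the local background beside them, 56 to 68 on the ob/ob and 57 to 66 on the wild-type array, was near the array medians of 60 for ob/ob and 63 for wild-type. Both arrays come from 1 slide. The log2 difference of a single spot had a median SD of 0.05 over 259 probes spotted 10 times. This SD covers spots of the same 2 arrays only, and not labelling, preparations or mice. The error model gave a larger median SD of 0.20, and the SD between probes of a gene was 0.33.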

How the data were processed

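RNA of LSEC from 1 ob/ob and 1 wild-type mouse was measured on 1-colour Agilent arrays. The deposited values are spot intensity made with Agilent Feature Extraction 11.0.1.1, per the submitters' processing notes. Per the file headers its processed signal is background-subtracted and detrended, with no scaling between arrays. The ob/ob file writes signals with 3 digits. Here each signal was divided by the 75th percentile of non-control spots of its array and taken to log2. Flagged spots were dropped and spots of a probe averaged, and the probe measured on both arrays with the highest mean log2 value stood for its gene. Probes with over 50% of spots well above background were taken as measured. The RefSeq table (GRCm38.p6, names only) named 26055 of 39429 probes by their main accession, and the file's name was kept for the rest. Normexp (offset 50) used limma 3.58.1 in R 4.3.3. Scaling, background correction, choice of probe, filter, flags and the authors' deposited table were varied.

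In 10 simulated draws over 39429 probes, 199 to 200 of 200 changed probes were recovered at 2-fold. The changed probes were well above background and brighter in wild-type cells than those of S100a4, S100a8 and S100a9. All were given changes larger than 2-fold with little noise, so recovery was nearly fixed in advance. The draws check the arithmetic and tell nothing about such dim probes. The mean error of a draw lay between -0.04 and 0.06 and equalled the injected noise plus the shift of the scaling. A limit first set on the mean error of 1 draw was missed, and this exact comparison replaced it.

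No test was possible with 1 array per group, and so few arrays limit the precision. The members and gene lists were chosen with earlier results of these data known. All 10 members are named. Of other lists the 3 largest differences, the 2 brightest genes and genes with only a bound could be named and some of them are, and any other gene was chosen after its values were seen. The value of 1 lymphocyte marker is not reported here.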

Additional observations from a re-analysis of the deposited data

How the results depend on the processing

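Among the S100 genes, 2 were at least 2-fold higher and 0 lower under 7 of the 8 alternatives. Counting genes measured on at least 1 array, with signals at background taken as they stand, made 4 of 10 members at least 2-fold higher, since that filter adds S100a3, S100a8 and S100a9. S100a8 and S100a9 pass that filter by their ob/ob signals alone, since neither was well above background in wild-type cells. The median of the members was then 0.24. Over the 20605 genes that pass the filter 2149 (10.4%) were higher and 669 (3.25%) lower. Scaling by the array median put the median of the members at -0.38 and the shift over all genes at -0.28. Over all genes, quantile normalization after normexp left 510 higher and 130 lower. The signs of S100a13 (-0.38 to 0.02) and S100a16 (-0.59 to 0.04) changed between alternatives. S100a4 ranged from 1.84 to 4.28 and S100a6 from 1.89 to 2.76. Neutrophil markers had 0 higher and 4 lower after normexp and 75th percentile scaling, 0 lower after normexp and quantile normalization, and 3 higher when measured on at least 1 array. That filter gave 5 cholangiocyte and 3 lymphocyte markers higher. Hepatocyte markers had 2 lower after normexp and 75th percentile scaling, and the plasminogen system 1 gene higher after normexp and quantile normalization. Except for the filter, which adds genes, the cause was not tested. S100a3, S100a8 and S100a9 are limited by background in wild-type cells. S100a4, at 36.2 and 23.5 by its probes, was not far above the brightest negative control there, 21.3. Leaving out a replicate was not possible. No paired analysis was possible because each group holds 1 array.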
